A study of Rattus norvegicus with 7 samples.

Results

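The nuclei described here are the type B and non-A intercalated nuclei of the rat kidney, called non-A nuclei below. They were chosen by 3 transcripts. A barcode with at least 200 genes, at most 10000 UMIs (unique molecular identifiers, 1 per captured RNA molecule) and at most 5% mitochondrial UMIs was kept if it held at least 2 UMIs of Slc26a4 and Insrr together and fewer than 40 UMIs of Slc4a1 per 10000. This gave 1135 nuclei of 30746 retained in all, or 3.69%. The study sequenced single nuclei from stored kidneys of HSRA rats, taken at 4 weeks of age, a line in which part of the animals are born with a single kidney. The labels give 3 libraries from animals with 1 kidney and 4 from animals with 2 kidneys, called 1-kidney and 2-kidney libraries here, and both groups are of the same line. They also count 3 HSRA-S and 4 HSRA-C animals, but no library's label carries those names. Each library was taken as 1 animal, from a central piece of kidney with cortex and medulla in proportions that the labels do not state.

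Intercalated cells lie among the principal cells of the connecting tubule and collecting duct and move acid and base with the vacuolar proton pump. Type A cells pump protons into the urine and return bicarbonate to the blood through the exchanger AE1, the product of Slc4a1. Type B cells are turned the other way: they secrete bicarbonate and take up chloride through pendrin, the product of Slc26a4, in the membrane facing the urine. A further kind, the non-A, non-B cell, also carries pendrin and is most frequent in the connecting tubule. Insrr encodes a relative of the insulin receptor that responds to alkaline fluid outside the cell. The rule cannot separate type B from non-A, non-B nuclei.

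The retained nuclei came from 37048 barcodes, with 2250, 4367 and 4222 nuclei in 1-kidney replicates 1 to 3 and 3848, 4377, 5896 and 5786 in 2-kidney replicates 1 to 4. Library names hold a set code, and 2-kidney replicates 3 and 4 alone form set P1117B, so that set and kidney number cannot be told apart there. Both had the lowest level of Slc34a1, a proximal tubule phosphate transporter, in non-A nuclei, at 7013 and 5887 CPM (counts per 1000000 of the summed UMIs). The other 5 libraries had 14613 to 23499 CPM. Across libraries 166 barcodes occurred more than once, 10 of them on a non-A nucleus, and no barcode marked a non-A nucleus in more than 1 library.

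Promoters are shown for genes that the comparisons turn on: Hmx2, a homeobox gene high in these nuclei, Dmrt2, a transcription factor gene that was nearly lacking in them, and Atp6v1b1, a proton pump subunit found in all intercalated cells. Each runs from 250 bases before to 50 bases after the start site in RefSeq GRCr8, 5′ to 3′. Capitals mark TGTTTAC, a forkhead motif searched on both strands because Foxi1, the intercalated cell regulator, is a forkhead factor.
Hmx2 promoter, chr1:195749034-195749333, plus strand: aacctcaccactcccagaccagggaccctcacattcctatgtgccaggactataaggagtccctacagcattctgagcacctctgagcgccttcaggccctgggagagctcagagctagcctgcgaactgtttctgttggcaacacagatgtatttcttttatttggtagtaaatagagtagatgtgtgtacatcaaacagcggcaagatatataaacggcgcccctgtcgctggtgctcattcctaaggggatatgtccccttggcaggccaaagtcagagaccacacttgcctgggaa
Dmrt2 promoter, chr1:232743692-232743991, plus strand: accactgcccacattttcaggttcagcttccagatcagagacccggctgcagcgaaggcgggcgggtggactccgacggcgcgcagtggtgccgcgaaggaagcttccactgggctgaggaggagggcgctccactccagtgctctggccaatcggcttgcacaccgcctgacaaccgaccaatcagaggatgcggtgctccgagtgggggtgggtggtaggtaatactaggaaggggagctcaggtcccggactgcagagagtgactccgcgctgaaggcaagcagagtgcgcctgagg
Atp6v1b1 promoter, chr4:117781194-117781493, plus strand: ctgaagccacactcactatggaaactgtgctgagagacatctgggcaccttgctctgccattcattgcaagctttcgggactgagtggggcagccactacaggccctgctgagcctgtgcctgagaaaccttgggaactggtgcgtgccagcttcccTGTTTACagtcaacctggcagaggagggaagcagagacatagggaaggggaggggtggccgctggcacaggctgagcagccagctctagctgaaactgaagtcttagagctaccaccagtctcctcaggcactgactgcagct
Of 51 genes looked up, 40 had a promoter in the table, and 1 of these, Atp6v1b1, held the motif, 93 bases before the start site. Of all 33469 promoters there, 3.78% held it, and a match or its lack describes only these letters in this window.

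The chosen nuclei carried the rule's transcripts at levels that are described without a test, since they set the membership. Slc26a4 stood at 4406, 3962 and 4394 CPM in the 1-kidney libraries and at 4357, 4196, 5721 and 5939 CPM in the 2-kidney libraries. Insrr stood at 2055, 1778 and 2047 CPM in the 1-kidney libraries and at 1843, 1892, 2742 and 2465 CPM in the 2-kidney libraries. For both transcripts the highest levels were those of 2-kidney replicates 3 and 4. Both occurred together in 940 nuclei (82.8%), Slc26a4 alone in 158 (13.9%) and Insrr alone in 37 (3.26%). Slc4a1 was at 0 UMIs in 922 nuclei (81.2%). The median nucleus held 14 UMIs of Slc26a4 and Insrr, and the highest held 124.

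Not all members resembled each other. Nuclei with more than 10 UMIs of the rule's transcripts, 664 of them, held 646 CPM of Hmx2 and 1736 CPM of Slc4a9, which encodes the anion exchanger AE4 of the blood-facing membrane of type B cells in mouse. The 140 nuclei with 6 to 10 UMIs held 319 CPM of Hmx2, and the 110 nuclei with 3 to 5 UMIs held 152 CPM. The 221 nuclei with exactly 2 UMIs, just inside the rule, held only 18.2 CPM of Hmx2 and 63.8 CPM of Slc4a9. Those just outside, 2639 nuclei with 1 UMI, held 1.73 CPM of Hmx2 and 25.6 CPM of Slc4a9. The nuclei at the lower bound, 19.5% of the members, were thus far closer in both genes to the nuclei outside than to those well inside. Slc34a1 was at 18773 CPM at 1 UMI, 22690 CPM at 2, 31677 CPM at 3 to 5, 22456 CPM at 6 to 10 and 9111 CPM above 10, so it was highest at 3 to 5 UMIs and lowest above 10. Free RNA and doublets were not tested as its source.

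**Figure D1:**
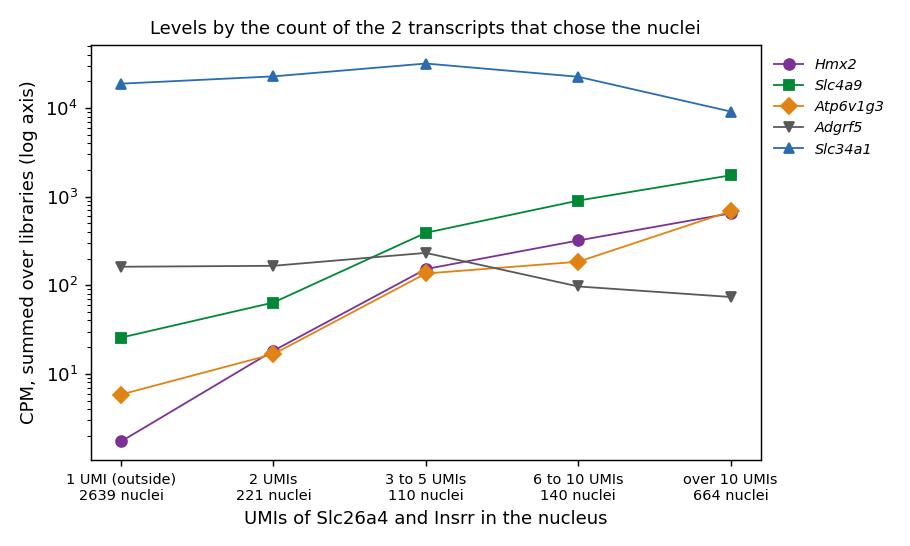
Levels of 5 genes (CPM summed over the 7 libraries, log axis) in nuclei binned by their UMIs of Slc26a4 and Insrr, with the bin outside the rule at the left. Hmx2 was at 1.73 CPM at 1 UMI and 646 CPM above 10 UMIs, and Slc34a1 was at 18773 and 9111 CPM.

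At the other bound, the 13 nuclei with 20 to 40 UMIs of Slc4a1 per 10000 held 143 CPM of Dmrt2 and 716 CPM of Adgrf5, an adhesion receptor gene of type A cells. Members without any Slc4a1 held 1.67 CPM of Dmrt2 and 80.9 CPM of Adgrf5. Just outside, 20 nuclei passed both the Slc26a4 and Insrr minimum and 40 UMIs of Slc4a1 per 10000, and held 204 CPM of Dmrt2 and 1095 CPM of Adgrf5 beside 277 CPM of Hmx2. These are sums over few nuclei, chosen for holding transcripts of both kinds. Whether they are doublets was not tested. The bound of 10000 UMIs left out 342 further nuclei that met the rest of the rule.

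Markers that the rule did not use were compared by lists of type B and type A genes, which they followed only in part. How well each listed gene marks its cell type was not tested. Hmx2 was high and the type A genes Dmrt2 and Aqp6 were near background, as described further on. Other genes of the type B list, Rhbg and Oxgr1, had lower levels in non-A than in type A nuclei, and the list summed to 2002 ± 552 CPM in non-A and 1920 ± 517 CPM in type A nuclei (SD, n = 7). Of the type A list, Rhcg stayed at 816 CPM in non-A nuclei and Slc4a2 did not pass the test. Hmx2 was found in 45.3% of non-A nuclei, against 0.866% of type A nuclei and 0.344% of podocyte nuclei, which should lack it. The median nucleus held 2118 UMIs in the non-A set, 1444 in the type A set and 2597 in the podocyte set. The type A set was 924 nuclei with at least 2 UMIs and at least 40 per 10000 of Slc4a1 and fewer than 2 of Slc26a4 and Insrr. The podocyte set was 1161 nuclei with at least 3 UMIs of podocyte markers, outside the non-A and type A sets. Nuclei that met the non-A rule could thus be in neither other set, which bears on the low Hmx2 there. At least 2 UMIs of the 11 genes known from all intercalated cells were present in 1091 non-A nuclei (96.1%). Slc34a1 in non-A nuclei averaged 16061 ± 7215 CPM (SD, n = 7 libraries), against 4248 ± 2319 CPM in podocyte nuclei, so proximal tubule RNA stood above the podocyte level. The level was not particular to non-A nuclei. Slc34a1 averaged 14634 ± 6586 CPM in type A nuclei and 19051 ± 6399 CPM in all retained nuclei outside the non-A set.

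**Figure D2:**
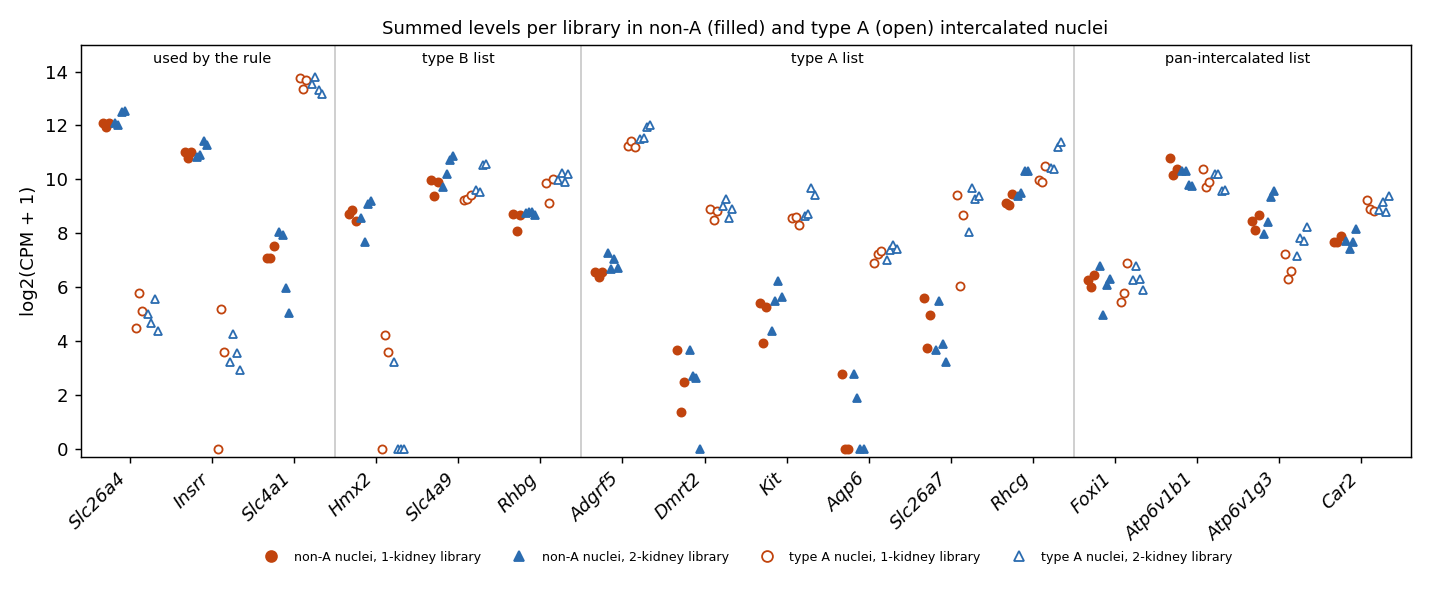
Level of 16 genes, log2(CPM + 1), with 1 point per library, in non-A nuclei (filled, left of each gene) and type A nuclei (open, right). The 3 genes at the left set the membership. Hmx2 lies at 206 CPM or more in every non-A sum and at most at 17.8 CPM in type A, and Adgrf5, Dmrt2, Kit and Aqp6 lie lower in every non-A sum.

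How the non-A nuclei differ from the type A nuclei of the same animals was asked with summed counts, the library as a block and the 3 genes of the rule left out. Both sets were cut from the same matrices by Slc4a1 and by Slc26a4 with Insrr. Genes that follow any of these in a nucleus, Hmx2 among them, describe the sets and are no separate evidence for the label. Among single genes, Hmx2, Slc4a5, Irs1, Igfbp5 and Dll1 were higher in non-A nuclei, and Dmrt2, Edn3, Kit, Slc26a7 and Rhbg were lower. Of 5939 genes tested, 754 (12.7%) passed edgeR's quasi-likelihood test at an adjusted p under 0.05, with 321 higher (5.4%) and 433 lower (7.29%). The count was 462 without set P1117B and 420 with DESeq2.

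Genes of the type B list split. Hmx2 was at 415, 468 and 346 CPM in non-A nuclei of the 1-kidney libraries and 382, 206, 540 and 591 CPM in those of the 2-kidney libraries. In type A nuclei it was at 0, 17.8 and 11.1 CPM in the 1-kidney libraries and at 8.45, 0, 0 and 0 CPM in the 2-kidney libraries. No library came close to overlap, and the log2 fold was 6.25 ± 0.24 (SE, edgeR adjusted p = 2.24e-29). Slc4a9 was only slightly higher, at 1169 ± 450 CPM in non-A and 918 ± 407 CPM in type A nuclei (SD, n = 7, log2 fold 0.32 ± 0.08, edgeR adjusted p = 0.00409). Both sets stood far above the 11.7 ± 6.01 CPM of the podocyte set. Rhbg, an ammonia transporter of the blood-facing membrane, was lower, at 403 ± 59.9 CPM in non-A and 976 ± 212 CPM in type A nuclei (log2 fold -1.29). Oxgr1, which encodes the receptor for 2-oxoglutarate, was at 1.45 CPM in non-A nuclei (5 counts) and 13.8 CPM in type A nuclei (26 counts), and like Slc4a8 it had too few counts to be tested.

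Of 7 genes of the type A list tested, 6 were lower in non-A nuclei, beside 7.29% lower over all genes, and Clnk had too few counts. Dmrt2 averaged 5.81 ± 4.59 CPM in non-A and 468 ± 85.6 CPM in type A nuclei (log2 fold -6.41 ± 0.20, edgeR adjusted p = 2.27e-34). Aqp6, a water and anion channel of intracellular vesicles, averaged 2.09 ± 2.81 and 154 ± 25.2 CPM in the same order (log2 fold -6.36). Both genes were at or near background in non-A nuclei. Adgrf5 averaged 109 ± 24.3 CPM in non-A, 3065 ± 696 CPM in type A and 39.8 ± 15.6 CPM in podocyte nuclei. Slc26a7, an anion exchanger of type A cells, averaged 24.0 ± 16.4 CPM in non-A and 499 ± 264 CPM in type A nuclei (log2 fold -4.48). Kit, the receptor for stem cell factor, averaged 39.96 ± 19.995 CPM in non-A and 486 ± 187 CPM in type A nuclei, and the log2 fold was -3.69 ± 0.14 (edgeR adjusted p = 4.32e-30). Rhcg, the ammonia channel of the urine-facing membrane, was lower by less (log2 fold -0.98) and stayed at 816 ± 312 CPM in non-A nuclei. Slc4a2, which encodes the exchanger AE2, was at 42.7 ± 15.2 CPM in non-A and 35.7 ± 9.87 CPM in type A nuclei and did not pass the test (edgeR adjusted p = 0.911).

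Proton pump subunits were present in both sets, with differences between subunits. Of 19 tested, 4 were higher and 1 lower in non-A nuclei, where 5.4% of all genes were higher and 7.29% lower, and 17 had a log2 fold above 0, with a median of 0.20 against 0.00 over all genes tested. Atp6v1g3, a G subunit of intercalated cells, averaged 434 ± 194 CPM in non-A and 172 ± 79.2 CPM in type A nuclei (log2 fold 1.28 ± 0.12, edgeR adjusted p = 8.36e-13). Atp6v1c2 averaged 1928 ± 427 CPM in non-A and 1288 ± 229 CPM in type A nuclei (log2 fold 0.55), and Atp6v1h had a log2 fold of 0.39. Atp6v1b1 at a log2 fold of 0.23 and Atp6v0a4 at -0.22 passed only narrowly (edgeR adjusted p = 0.0428 and 0.0421) and missed the threshold with DESeq2 and without set P1117B, among other alternatives. Atp6v0d2, at 777 ± 181 CPM in non-A and 659 ± 97.9 CPM in type A nuclei, did not pass (edgeR adjusted p = 0.121) but did when 3 UMIs were required (log2 fold 0.52).

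Other genes of all intercalated cells did not move together either. Hepacam2, an adhesion protein of intercalated cells, was higher in non-A nuclei, at 212 ± 47.9 CPM against 129 ± 27.4 CPM in type A nuclei (log2 fold 0.63). Car2, the cytosolic carbonic anhydrase, was lower, at 215 ± 35.6 CPM in non-A and 527 ± 87.4 CPM in type A nuclei (log2 fold -1.29). Tfcp2l1, a transcription factor of the collecting duct, was lower with a log2 fold of -0.48, and of -0.23 without a call when 3 UMIs were required. Foxi1 was at 72.9 ± 24.5 CPM in non-A and 76.7 ± 28.4 CPM in type A nuclei (edgeR adjusted p = 0.710). Bsnd, which encodes barttin, did not pass either (log2 fold -0.04).

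Among 21 anion, bicarbonate and ammonia transport genes tested, 4 were higher and 9 lower, against 5.4% and 7.29% of all genes, with a median log2 fold of -0.04. Slc4a5, an electrogenic sodium bicarbonate cotransporter, averaged 86.1 ± 25.4 CPM in non-A and 15.7 ± 15.9 CPM in type A nuclei (log2 fold 2.42 ± 0.27). Clcn3, a chloride and proton exchanger of intracellular vesicles, averaged 520 ± 89.0 CPM in non-A and 167 ± 44.6 CPM in type A nuclei (log2 fold 1.64). Ca12, a carbonic anhydrase anchored at the cell surface, was the other higher gene beside Slc4a9, at 5807 ± 1534 CPM in non-A and 3074 ± 557 CPM in type A nuclei (log2 fold 0.88). The list thus held carbonic anhydrases that differed in opposite directions, Ca12 and Car2. Slc12a2, the sodium, potassium and chloride cotransporter NKCC1, averaged 20.6 ± 5.70 CPM in non-A and 165 ± 41.5 CPM in type A nuclei (log2 fold -2.99).

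Of 24 transcription factor and Notch genes, 12 were lower, 3 were higher and 9 did not pass, with a median log2 fold of -0.32, beside 7.29% lower and 5.4% higher over all genes. The 3 higher ones were Hmx2 and the Notch ligands Dll1 (56.8 ± 25.1 CPM in non-A, 14.1 ± 9.60 CPM in type A nuclei, log2 fold 2.10) and Jag1 (65.0 ± 13.8 and 23.5 ± 12.5 CPM, log2 fold 1.38). Notch signalling sets the balance of principal and intercalated cells during development of the collecting duct. Beside Dmrt2, the lower genes included Ehf (log2 fold -2.41), Gata3 (-1.08), Gata2 (-1.02), Pax2 (-0.84), Esrrg (-0.71) and the receptor gene Notch1 (-0.62).

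Insulin and IGF signalling genes gave 5 higher and 1 lower of 21 tested, with a median log2 fold of 0.14 (over all genes 5.4% were higher and 7.29% lower). Irs1, the adaptor that carries the insulin and IGF signal from the receptor, was at 237, 219 and 381 CPM in non-A nuclei of the 1-kidney libraries and at 239, 423, 668 and 860 CPM in those of the 2-kidney libraries. In type A nuclei it was at 21.3 to 84.8 CPM, below every non-A sum (log2 fold 3.24 ± 0.15, edgeR adjusted p = 1.31e-25). Igfbp5, a secreted IGF-binding protein, averaged 995 ± 390 CPM in non-A and 99.7 ± 64.3 CPM in type A nuclei (log2 fold 3.22 ± 0.15). Irs2, a second adaptor, was lower (log2 fold -0.66), so both adaptors differed in opposite directions. Foxo1, Foxo3 and Grb10 were higher by log2 folds of 0.42, 0.34 and 0.27.

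Of 20 aldosterone and sodium transport genes, 3 were higher and 3 lower, beside 5.4% higher and 7.29% lower over all genes. Nr3c1, the glucocorticoid receptor, averaged 106 ± 16.1 CPM in non-A and 51.5 ± 21.9 CPM in type A nuclei (log2 fold 0.99). Wnk4, a kinase upstream of sodium chloride cotransport, had a log2 fold of 0.67, and Hsd11b2, which inactivates glucocorticoids, of 0.53. Stk39, which encodes the kinase SPAK downstream of the WNK kinases, was lower, at 378 ± 65.6 CPM in non-A and 837 ± 268 CPM in type A nuclei (log2 fold -1.19). The mineralocorticoid receptor gene Nr3c2 stood at 1054 ± 353 CPM in non-A and 1135 ± 472 CPM in type A nuclei and did not pass (edgeR adjusted p = 0.392). Of 23 growth factor genes, none was higher and 3 were lower, against the same shares of all genes: Kit, the receptor gene Met (log2 fold -2.31) and Fgfr2 (-1.47).

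Beyond the lists, the largest differences included genes with other roles. Tmem163, which encodes a zinc transporter, was at 207, 332 and 357 CPM in non-A nuclei of the 1-kidney libraries and at 419, 332, 1067 and 852 CPM in those of the 2-kidney libraries. In type A nuclei it lay at 0 to 17.8 CPM (log2 fold 6.37 ± 0.23, edgeR adjusted p = 5.73e-31). Ccdc80, which encodes a secreted matrix protein, averaged 1231 ± 613 CPM in non-A and 123 ± 50.6 CPM in type A nuclei (log2 fold 3.26). Its highest sum was 2576 CPM, in 1-kidney replicate 1, the library with the fewest non-A nuclei. Cpeb1, a regulator of mRNA polyadenylation and translation, Unc13c, a vesicle priming factor, and Slc16a5, a monocarboxylate transporter family member, had log2 folds of 3.88, 3.32 and 2.90. Soga1, Chchd6, Parm1, Itpk1 and Zdhhc14 followed, with log2 folds of 2.28, 2.14, 1.93, 1.91 and 1.89.

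Edn3, which encodes the peptide endothelin 3, averaged 2.59 ± 4.23 CPM in non-A and 234 ± 117 CPM in type A nuclei (log2 fold -6.75 ± 0.28, edgeR adjusted p = 9.51e-28). Asic1, an acid-sensing ion channel, averaged 3.45 ± 4.19 CPM in non-A and 91.7 ± 25.8 CPM in type A nuclei (log2 fold -4.42). Several signalling genes were also lower: Sctr, the secretin receptor (log2 fold -3.33), Adcy5, an adenylyl cyclase (-3.29), and P2ry14, a receptor for UDP-sugars (-2.97). Egr1, an immediate early transcription factor, averaged 21.7 ± 16.015 CPM in non-A and 225 ± 118 CPM in type A nuclei (log2 fold -3.33). Racgap1, Asap3 and Ubash3b had log2 folds of -4.72, -3.19 and -3.17. Each of these 30 genes differed in the same direction in 7 of 7 libraries, which their choice by the largest called folds in this contrast largely fixes. The proximal tubule marker sums of the sets were 26433 ± 6023 CPM in non-A and 26571 ± 2833 CPM in type A nuclei of the 1-kidney libraries. In the 2-kidney libraries they were 17679 ± 8268 CPM in non-A and 14249 ± 5762 CPM in type A nuclei, and their part in the differences was not tested.

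**Figure D3:**
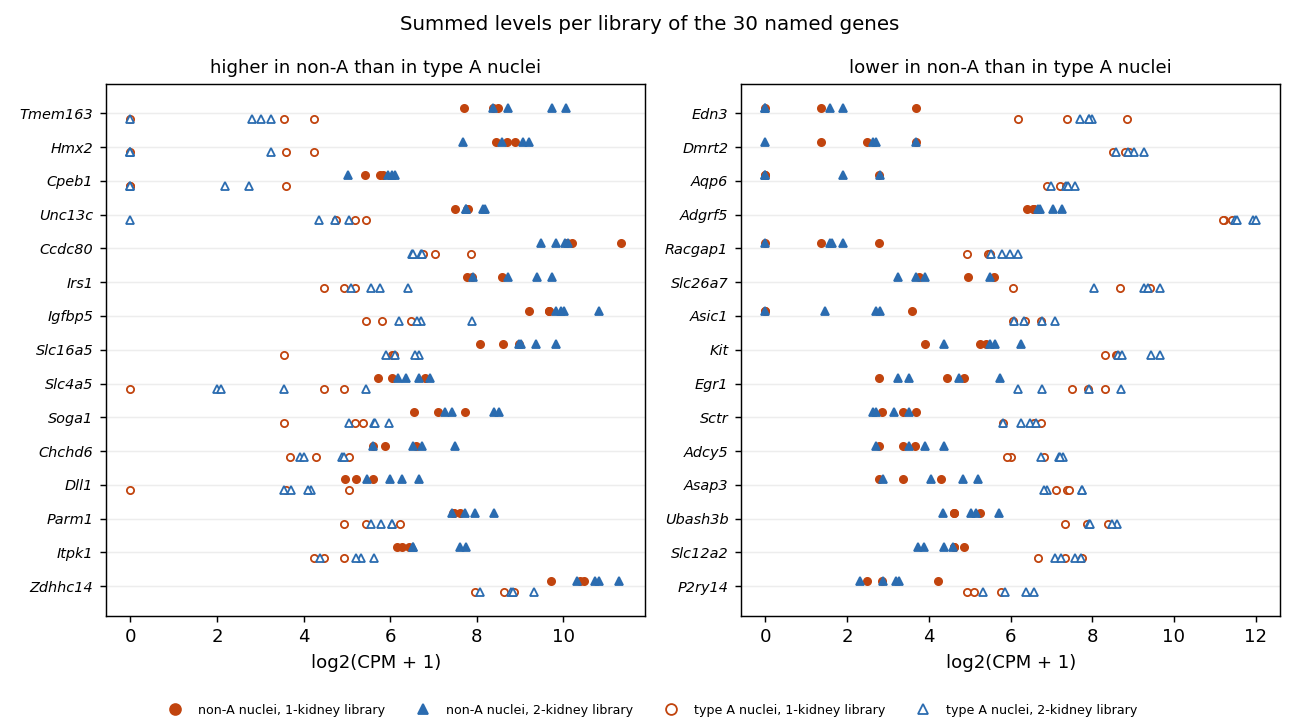
Level of the 15 genes with the largest positive and the 15 with the largest negative log2 fold in non-A over type A nuclei, as log2(CPM + 1) with 1 point per library (non-A filled and above, type A open and below). The genes were picked for the largest folds in this contrast, which largely fixes that each differs in the same direction in 7 of 7 libraries, from Tmem163 (log2 fold 6.37) to Edn3 (log2 fold -6.75).

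The first comparison of kidney number was of how many nuclei were non-A. They were 4.00%, 5.59% and 3.91% of retained nuclei in the 1-kidney libraries (90, 244 and 165 nuclei). In the 2-kidney libraries they were 4.31%, 2.63%, 3.32% and 2.75% (166, 115, 196 and 159 nuclei). The groups overlapped through 2-kidney replicate 1, and the means were 4.498% ± 0.944 (SD, n = 3) and 3.25% ± 0.770 (SD, n = 4) in the same order. The exact permutation test over libraries, two-sided, gave p = 0.114 (adjusted over 4 measures, 0.152), where 0.0286 is the smallest p it can give. With each nucleus thinned to 1000 UMIs the shares were 3.57% and 2.84% (exact permutation p = 0.314). Shallower nuclei were left out, 791 of 2250, 1164 of 4367 and 945 of 4222 in the 1-kidney libraries. In the 2-kidney libraries 914 of 3848, 691 of 4377, 1136 of 5896 and 694 of 5786 were left out. Thinned to 500 UMIs, with 0 nuclei left out, the shares were 3.11% and 2.27% (exact permutation p = 0.114). With at least 3 UMIs of Slc26a4 and Insrr they were 3.66% and 2.61% (exact permutation p = 0.0857). Without set P1117B the shares were 4.498% and 3.47% (exact permutation p = 0.6, where 0.1 is the smallest possible, so this test could not pass). Non-A nuclei made up 59.5% ± 10.2 of non-A and type A nuclei together in the 1-kidney libraries and 51.1% ± 5.28 in the 2-kidney libraries (exact permutation p = 0.257, adjusted p = 0.257). Both differences leaned on 1-kidney replicate 2, which had 70.9% in the last measure. Without it the difference in that share was 2.72 percentage points, against 8.42 with all libraries, and the difference in the share of retained nuclei was 0.70 points, against 1.25.

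**Figure D4:**
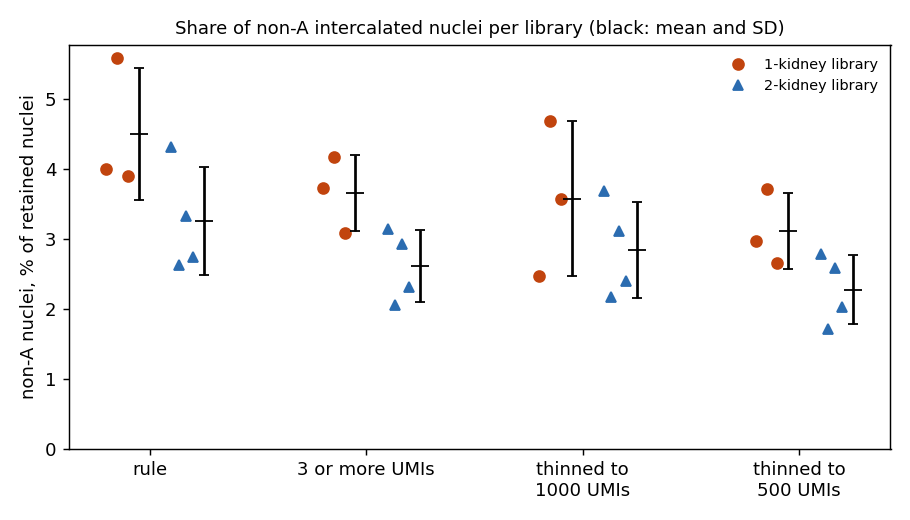
Non-A nuclei as a percentage of retained nuclei, 1 point per library, with 1-kidney libraries left of 2-kidney libraries and the mean and SD in black, by the rule, with at least 3 UMIs, and after thinning to 1000 and 500 UMIs. The groups overlap by the rule, at 3.91% to 5.59% and 2.63% to 4.31%.

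Depth per nucleus was compared as well, since the rule counts UMIs. The median UMIs of non-A nuclei were 1115, 1872 and 2076 in the 1-kidney libraries and 2119, 2605, 2443 and 2576 in the 2-kidney libraries. These values do not overlap, and the exact permutation p was 0.0286, the smallest possible, with an adjusted p of 0.0571. Nuclei of 1-kidney libraries held a median of 1092 ± 261 genes (SD, n = 3) and those of 2-kidney libraries 1470 ± 99.1 genes (SD, n = 4), with the same exact permutation p. Neither measure passed after adjustment. Over all retained nuclei the medians overlapped, at 1412, 1642 and 1867 UMIs in the 1-kidney libraries and 1765, 2101, 2061 and 2363 UMIs in the 2-kidney libraries.

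Gene levels within the non-A nuclei were then compared between 1-kidney and 2-kidney libraries. Of 7121 genes tested, 0 passed edgeR's adjusted test (0%), so what follows are values. The smallest edgeR adjusted p was 0.229, and 861 genes (12.1%) had an unadjusted p under 0.05. The CPM of the groups did not overlap for 797 genes (11.2%). DESeq2 called 2 genes, and 5 were called when 3 UMIs of Slc26a4 and Insrr were required, so the count depended on the tool and on the nuclei at the lower bound.

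The 12 genes with the smallest p did not overlap between the groups. Ephb2, an ephrin receptor, was at 0, 9.39 and 20.9 CPM in the 1-kidney libraries and at 55.4, 82.4, 41.8 and 90.4 CPM in the 2-kidney libraries (log2 fold -2.41 ± 0.47). Rab3b, a GTPase of secretory vesicles, was at 0, 7.82 and 6.96 CPM in the 1-kidney libraries and at 29.7, 49.4, 78.4 and 31.5 CPM in the 2-kidney libraries (log2 fold -2.83 ± 0.56). Tdrp was at 272, 188 and 190 CPM in the 1-kidney libraries and at 111, 102, 66.2 and 44.2 CPM in the 2-kidney libraries (log2 fold 1.43 ± 0.29). Of these, DESeq2 called Ephb2 and Tdrp, with the same directions. Pdk4, a kinase that restrains the use of glucose carbon in mitochondria and is induced by glucocorticoids, was at 41.5, 29.7 and 44.1 CPM in the 1-kidney libraries and at 3.95, 5.49, 5.23 and 14.7 CPM in the 2-kidney libraries (log2 fold 2.34 ± 0.47). These 4 genes shared the edgeR adjusted p of 0.229.

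The other 8 had an edgeR adjusted p of 0.289. Plcz1, a phospholipase C known from sperm, was at 213, 82.9 and 65.0 CPM in the 1-kidney libraries and at 39.5, 24.7, 3.49 and 2.10 CPM in the 2-kidney libraries (log2 fold 2.69). Sgk1, a kinase induced by aldosterone and glucocorticoids, was at 219, 260 and 167 CPM in the 1-kidney libraries and at 123, 140, 74.96 and 73.6 CPM in the 2-kidney libraries (log2 fold 1.12 ± 0.27). When 3 UMIs were required, Sgk1 passed the edgeR test, with a log2 fold of 1.47. AABR07052405.1 and RGD1564171 had log2 folds of 1.99 and 1.88. Ntn4, a netrin of basement membranes, was at 47.4, 46.9 and 46.4 CPM in the 1-kidney libraries and at 83.0, 90.6, 119 and 116 CPM in the 2-kidney libraries (log2 fold -1.09). Tldc2 and Rexo1 had log2 folds of -2.17 and 1.15. Replicates 3 and 4, the libraries of set P1117B, were the lowest 2-kidney libraries for Plcz1, Sgk1, AABR07052405.1, RGD1564171, Tdrp and Rexo1 and the highest for Ntn4 and Tldc2, which makes 8 of the 12 genes. Slc5a12, a lactate transporter of the proximal tubule, had a log2 fold of 0.86, beside proximal tubule marker sums of 19486 to 30184 CPM in the 1-kidney and 10007 to 25455 CPM in the 2-kidney libraries. The part of that RNA in the differences was not tested.

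**Figure D5:**
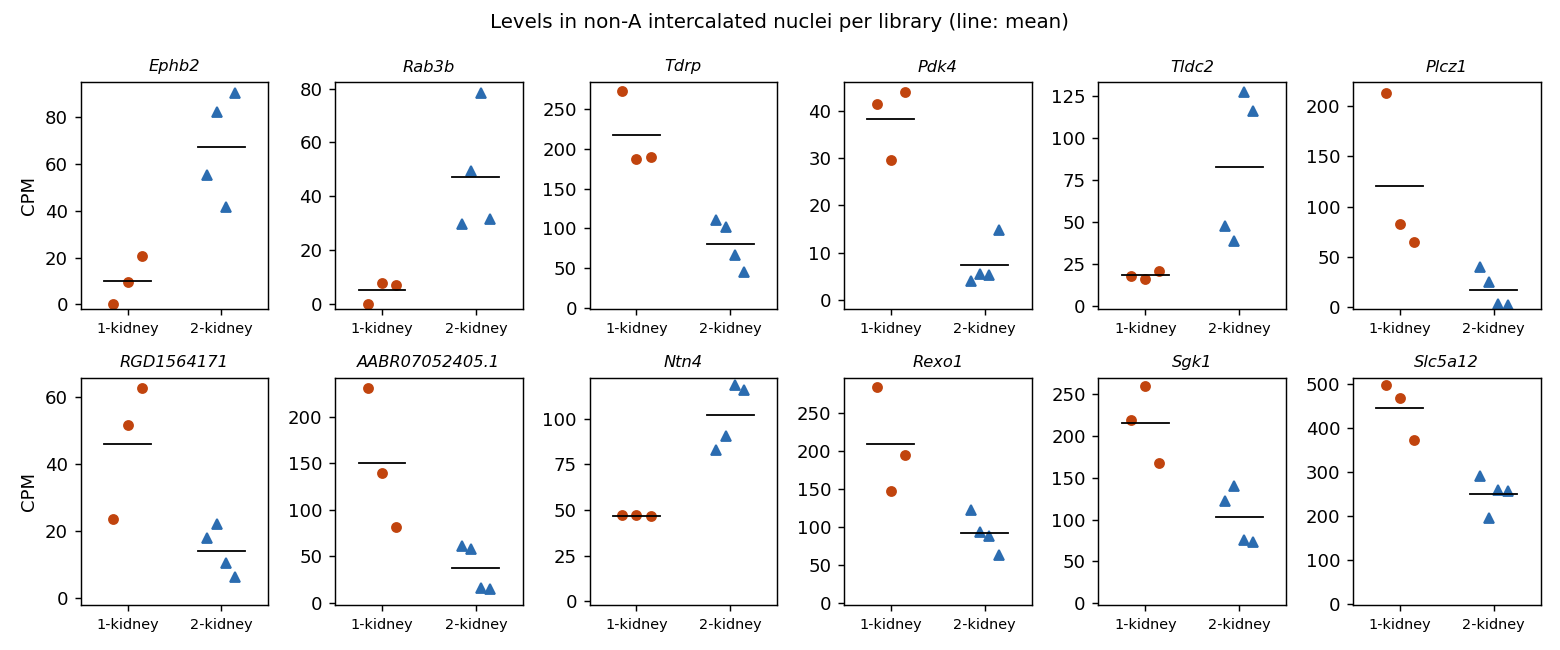
Level (CPM) of the 12 genes with the smallest p in non-A nuclei, 1 point per library, 1-kidney libraries left, with the mean as a line. The groups do not overlap in these 12 genes, which were picked for that contrast, and none passed after adjustment (smallest edgeR adjusted p 0.229).

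Described by list, no list had a called member. Glucocorticoid-induced genes had a log2 fold above 0 in 8 of 8 tested, with a median of 0.70, beside 50.05% above 0 and a median of 0.00 over all genes. Fkbp5, a co-chaperone of the glucocorticoid receptor, averaged 401 ± 28.2 CPM in 1-kidney and 233 ± 139 CPM in 2-kidney libraries, whereas Klf9 had a log2 fold of 0.00. The summed level of the list was 1943, 2102 and 2317 CPM in the 1-kidney libraries and 724, 2145, 1571 and 1895 CPM in the 2-kidney libraries, so the groups overlapped and 2-kidney replicate 1 was the lowest by far. The mean sum was higher in 1-kidney libraries outside the non-A nuclei too, at 2432 and 1633 CPM in type A nuclei (1-kidney, then 2-kidney libraries). It was 1725 and 1269 CPM in the podocyte set and 2862 and 2263 CPM in the remaining nuclei. The remaining nuclei are all retained nuclei outside the non-A set, so they include the type A and podocyte sets. Libraries overlapped in the podocyte set (1413 to 1909 and 458 to 2138 CPM) and in the remaining nuclei (2515 to 3132 and 916 to 2749 CPM). In type A nuclei they did not (2386 to 2477 and 783 to 1985 CPM).

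Unfolded protein response genes were above 0 in 16 of 19, with a median of 0.24. Their sum averaged 2018 CPM in 1-kidney libraries, with 2606 CPM in replicate 1, and 1429 CPM in 2-kidney libraries. Mean sums outside the non-A nuclei were higher in 1-kidney libraries as well, at 1721 and 1378 CPM in type A nuclei (1-kidney, then 2-kidney libraries). They were 2186 and 1363 CPM in the podocyte set and 1877 and 1388 CPM in the remaining nuclei. The remaining nuclei again include the type A and podocyte sets, and libraries of the kidney groups overlapped in each. Hspa5, the main chaperone of the endoplasmic reticulum, averaged 344 ± 172 CPM in 1-kidney and 176 ± 67.2 CPM in 2-kidney libraries (log2 fold 0.96 ± 0.32, edgeR adjusted p = 0.299). Insulin and IGF genes were above 0 in 4 of 22, with a median of -0.19, and their sum was lower in 1-kidney libraries in the remaining nuclei too (4471 CPM in 1-kidney and 5481 CPM in 2-kidney libraries), as in non-A nuclei (4942 and 6267 CPM). Irs1 averaged 279 ± 88.6 CPM in 1-kidney and 547 ± 273 CPM in 2-kidney libraries (log2 fold -0.93 ± 0.34, edgeR adjusted p = 0.326). Cholesterol synthesis and uptake genes were above 0 in 1 of 7, with a median of -0.36, and their sum was 382 CPM in 1-kidney and 517 CPM in 2-kidney libraries in non-A nuclei, beside 395 and 536 CPM in the remaining nuclei. Proximal tubule markers were above 0 in 10 of 12, with a median of 0.28, and podocyte markers in 4 of 4, with a median of 1.03.

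Type B and proton pump genes gave no call between the kidney groups in non-A nuclei. Hmx2 averaged 409 ± 61.2 CPM in 1-kidney and 430 ± 174 CPM in 2-kidney libraries (log2 fold -0.03 ± 0.28, edgeR adjusted p = 0.977), and the log2 fold was 0.49 without set P1117B. Slc4a9 averaged 870 ± 174 CPM in 1-kidney and 1394 ± 477 CPM in 2-kidney libraries (log2 fold -0.65 ± 0.27, edgeR adjusted p = 0.361). Of the proton pump genes, 5 of 20 had a log2 fold above 0, with a median of -0.11, led by Atp6v0a4 at 1037 ± 53.0 CPM in 1-kidney and 1576 ± 284 CPM in 2-kidney libraries (log2 fold -0.56, edgeR adjusted p = 0.326). Anion and bicarbonate genes were above 0 in 10 of 21, and aldosterone genes in 9 of 21.

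Whether the kidney groups differed by a different amount in non-A and type A nuclei was tested as an interaction. Of 5939 genes 0 passed (0%, smallest edgeR adjusted p 0.140), and 348 had an unadjusted p under 0.05. DESeq2 also called 0. For Kit the difference in log2 fold was -0.06 ± 0.31. For Sgk1 it was 0.31 ± 0.26, with type A nuclei at 181 ± 44.0 CPM in 1-kidney and 108 ± 16.7 CPM in 2-kidney libraries. A p that misses the threshold does not show that both kinds of intercalated nuclei were alike in this.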

How the data were processed

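For each of 7 single-nucleus libraries (10x 3' chemistry, per the labels' protocols) the authors deposited raw UMI counts of genes in barcodes. The submitters' processing notes name Cell Ranger 7.0. Build and annotation: not given in the sources used here. Each feature table lists 25399 genes, and 148 symbols belong to more than 1 identifier. Counts of the chosen nuclei were summed per library (168850 to 639056 UMIs for non-A, 94057 to 355094 for type A) and tested with edgeR 4.0.16 in R 4.3.3 (quasi-likelihood, TMM, filterByExpr, two-sided, Benjamini-Hochberg over all genes tested, threshold 0.05). DESeq2 1.42.0 was an alternative. Non-A and type A sums of the same library come from the same animal, which pairs them, so the library was a block. Shares and depths were compared with exact permutation tests over libraries. Replicate numbers only name libraries, and p-values measure the spread between them. Scrublet (scanpy 1.11.5) marked 10 barcodes by its automatic threshold, which had not worked, so no doublets were removed in the main analysis. An alternative left out 1908 nuclei with high scores, 124 of them non-A (761 genes called for non-A over type A, 0 between kidney groups). The scripts were tested on simulated data.

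The rule, the lists and the podocyte set were chosen with earlier results of these data known. Named genes were the markers, the 12 with the smallest p between kidney groups, and the 15 called genes per direction with the largest log2 fold at 20 CPM or more between non-A and type A. Pathway lists are shown by their called genes first. Promoters are from RefSeq GRCr8. Intervals of counting error are not printed, since the spread between libraries is given. Some genes of the lists are not reported here by name.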

Additional observations from a re-analysis of the deposited data

Results flagged for a closer look

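In a test for a single library far from the others, 67 groups of 4 2-kidney libraries were examined and 3 stood out (4.48%), where chance gives about 1 in 20. Slc26a7 in non-A nuclei was at 43.9 CPM in 2-kidney replicate 2, and at 8.41 to 13.9 CPM in the other 2-kidney libraries. Pdk4 was at 14.7 CPM in 2-kidney replicate 4, against 3.95 to 5.49 CPM in the other 3, still below the 29.7 to 44.1 CPM of the 1-kidney libraries. Igfbp5 was at 1816 CPM in 2-kidney replicate 3, against 907 to 1043 CPM in the other 3.

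Ntn4 differed between non-A and type A nuclei in opposite directions in the kidney groups. In all 3 1-kidney libraries the non-A level was the lower one (46.9 ± 0.477 CPM in non-A, 60.9 ± 8.68 CPM in type A nuclei), and in all 4 2-kidney libraries the higher one (102 ± 17.8 CPM in non-A, 73.6 ± 19.0 CPM in type A nuclei). Over all 7 libraries the non-A over type A log2 fold was 0.21. The interaction had a log2 value of -0.88 ± 0.38 (SE) and did not pass (edgeR adjusted p = 0.763).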

How the results depend on the processing

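Among the settings of 7 summary results, 89 values stayed on their side of the threshold or within 1.5 times the count, and 12 did not. No direction reversed among the shares and depths, while counts of genes have no direction to reverse. With a library or set P1117B left out, the exact permutation test of shares and depths cannot give a p under 0.0667. Those values could therefore not cross the threshold, and their staying is no sign of stability. For 1-kidney over 2-kidney libraries, 0 genes were called by the rule, 5 with at least 3 UMIs of Slc26a4 and Insrr, 80 without a filter on low counts, 2 with DESeq2, and 0 to 6 when a library was left out, the 6 without 2-kidney replicate 1. The 5 were Plcz1, Sgk1 and Slc5a12 (higher) and Tldc2 and Rab3b (lower), and Plcz1, Tldc2 and Rab3b were also among the 6. For non-A over type A nuclei, 754 genes were called, 420 with DESeq2, 462 without set P1117B, and 612 to 764 when a library was left out. Without the library as a block 277 were called, and all 277 are among the 754, with the same direction, while Slc4a9, Atp6v1c2, Atp6v1b1, Tfcp2l1 and Atp6v0a4 lost their call. At 3 UMIs 963 were called, and 622 of them are shared with the same direction. For the interaction the count was 0, 1 at 3 UMIs, 3 without a filter, 3 without set P1117B, and 0 to 3 when a library was left out (3 without 1-kidney replicate 2, 2 without 2-kidney replicate 3). The causes were not tested. The smallest library had 90 non-A nuclei and 168850 UMIs, which limits low genes most.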
